A study of Mus musculus with 27 samples.

Results

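Rbm28, Zdhhc3, Nudt4, Vps26a, Vps26b and Aplf are 6 of the 24000 genes in the count files, and 6 of the 12073 that had enough reads to be tested. They were picked by symbol as genes that had lower read counts in cells with a STAT5B hairpin and not in cells with other hairpins. The STAT5B, STAT5A, LSD1, HDAC3 and no-target libraries therefore chose them. The rule set the STAT5B libraries against every other group, wild type included. Values and counts of calls of the 6 in comparisons with any hairpin group only describe how they were chosen. No p of theirs is printed there, and nothing rests on their passing a threshold. That description holds for Rbm28, Zdhhc3, Nudt4, Vps26b and Aplf, whose 3 STAT5B libraries lay below all 24 remaining libraries (Vps26b by only 0.139%). Of the 12073 genes tested, 16 (0.133%) had this pattern. The data go against the description for Vps26a, which was as low in the 3 libraries with the HDAC3 hairpin. At an adjusted p under 0.05 in edgeR's quasi-likelihood test of STAT5B hairpin against no-target hairpin, Rbm28, Zdhhc3, Nudt4 and Vps26b passed, and Vps26a and Aplf did not. Of all genes tested, 0.133% were called lower in that comparison.

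PolyA RNA of Ba/F3, a mouse pro-B cell line that needs the cytokine IL3 to grow, was sequenced in 27 libraries of 7 groups. Wild-type cells were kept without IL3 for 6 h (5 libraries), or starved likewise and restimulated for 30 min with 10 ng/mL of IL3 (5 libraries). Cells carrying a lentivirus with a short hairpin, selected with puromycin for a week or more, were all collected after the same 6 h without and 30 min with IL3. The hairpin was directed at STAT5A, STAT5B, LSD1 (gene Kdm1a) or HDAC3 (3 libraries each), or had no target in the cell (5 libraries). The hairpin groups analysed here hold the stimulated state only. By the labels, libraries within a group are biological replicates, without word on separate cultures, so p-values measure the spread between these libraries. How many hairpins were used per target, and their sequences, the sources used here do not give.

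STAT5A and STAT5B are closely related transcription factors that receptors of cytokines such as IL3 activate through JAK kinases. Once phosphorylated they form dimers, enter the nucleus and bind DNA at a spaced TTC and GAA half-site pair. A short hairpin lowers an mRNA by base pairing of its guide strand, so a related or partly matching mRNA can be lowered too. The 6 genes have no common pathway. VPS26A and VPS26B are alternative subunits of retromer, the complex that returns membrane proteins from endosomes to the Golgi apparatus and the cell surface. ZDHHC3 is a Golgi enzyme that attaches palmitate to proteins. NUDT4 is a NUDIX hydrolase that splits inositol pyrophosphates, RBM28 is a nucleolar RNA-binding protein of ribosome assembly, and APLF helps to join broken DNA ends.

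Depth was 5.48 to 33.8 M reads counted in genes per library, and 8.53 to 18.8 M in the 3 STAT5B libraries. In 5 libraries (HDAC3 replicates 1 and 2, LSD1 replicate 1, no-target replicates 1 and 3), the share of reads outside genes was 14.0 to 24.9%, and in the remaining 22 it was 8.70 to 12.0%. None of the 5 carried the STAT5B hairpin. Of 11 B-lineage markers only 3 passed the filter on low counts, Cd79a at 24.2 to 70.8 CPM and Cd79b at 15.4 to 66.5 CPM among them, while Pax5, Ebf1, Blnk and Rag1 were at or near 0. Csf2rb, the shared signalling chain of the IL3 receptor, was at 1769 to 7920 CPM. CPM are read counts relative to 1 M reads in genes, with library sizes adjusted by edgeR's TMM factors. Because whole cultures were sequenced, fewer cells of a kind and less RNA per cell cannot be told apart.

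The target of the hairpin was measured first. Stat5b stood at 33.7, 29.3 and 36.0 CPM in STAT5B replicates 1 to 3, which is 29.2, 25.3 and 31.1% of the no-target mean of 115.7 CPM. No other library was below 75.5 CPM (wild type without IL3, replicate 3). Stat5a was 75.5 ± 14.1 CPM (SD, n = 3) in the STAT5B cells and 72.3 ± 14.8 CPM (SD, n = 5) in the no-target cells, a log2 fold change of 0.06. In the STAT5A cells Stat5a itself was at 25.96 ± 2.03 CPM (SD, n = 3), while Stat5b was at 88.3 ± 1.10 CPM, a log2 fold change of -0.39 against no-target. Of the 50-base stretches in the longest Stat5b transcript, 11.8% also occur in Stat5a, so some reads could fit both genes. Reads without a unique alignment have a summary row of their own, which was left out of the counts. Of 6 tested genes of the STAT family, Stat5b was the 1 called lower.

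Sequence shared between the 6 mRNAs and Stat5b is shown here because the hairpin was designed against Stat5b. The longest runs of identical bases on the same strand between the longest annotated transcript of each gene and any transcript of Stat5b (GENCODE vM21) were as follows, with no part in capitals because no site is marked.
Rbm28: gctgaagatcaag
Zdhhc3: tctctctctctctc
Nudt4: acgtacgaccgc
Vps26a: aggggcgcggag
Vps26b: ttttgttttgtttt
Aplf: aggaagccaggc
The runs are 12 to 14 bases long, and those of Zdhhc3 and Vps26b are simple repeats. A run of at least 12 bases was found in 82.4% of 11408 tested genes, one of at least 13 bases (as in Rbm28) in 50.8%, and one of at least 14 bases (as in Zdhhc3 and Vps26b) in 27.3%. No member therefore shares more with Stat5b than is common among genes. The runs say nothing on which bases the hairpin uses, and whether it pairs with any of the 6 mRNAs was not tested.

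Both VPS26 subunits of retromer were lower in the STAT5B cells, to different degrees and with different neighbours in the ranking of groups. Vps26b (chromosome 9, 27007771 to 27030065, minus strand, GRCm38/mm10) was at 86.4, 70.0 and 65.1 CPM in STAT5B replicates 1 to 3. In the 5 no-target libraries it was at 102.4, 110.5, 113.8, 112.7 and 111.5 CPM. Every STAT5B library was below every no-target library, and the group mean was 67.0% of the no-target mean. The STAT5A cells held 120.3, 114.8 and 121.8 CPM, and the log2 fold change of STAT5B over STAT5A cells was -0.69. The separation from all 24 remaining libraries was narrow: the highest STAT5B library was only 0.139% below the lowest of them, wild type with IL3 replicate 4 at 86.5 CPM. Against no-target the log2 fold change was -0.58 (SE 0.10).

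Vps26a (chromosome 10, 62455235 to 62486805, minus strand) was at 61.1, 59.7 and 75.6 CPM in the STAT5B cells. In the no-target cells it was at 78.9, 82.0, 108.0, 105.1 and 87.5 CPM, so that these groups did not overlap. The HDAC3 cells held 70.8, 73.6 and 58.1 CPM, all at or below the highest STAT5B library. Their mean was 67.5 ± 8.29 CPM (SD, n = 3), or 73.1% of no-target, next to 65.5 ± 8.83 CPM, or 70.9%, with the STAT5B hairpin. The log2 fold change of STAT5B over HDAC3 cells was -0.04, and of HDAC3 over no-target cells -0.45 (SE 0.14). HDAC3 replicates 1 and 2 are among the 5 libraries with many reads outside genes. When those 5 libraries were dropped, the value of STAT5B over HDAC3 cells was 0.17, with HDAC3 replicate 3, the lowest in Vps26a, as the only HDAC3 library left. Vps26a was thus low in both the STAT5B and the HDAC3 cells, and in the LSD1 cells it reached the highest value of any library, 143.8 CPM in replicate 2.

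Per kilobase of merged exons, Vps26a had the higher value in no-target and STAT5B cells. Vps26a stood at 32.3 ± 4.69 CPM per kb (SD, n = 5) against 21.6 ± 0.884 for Vps26b in no-target cells, and at 22.9 ± 3.09 against 14.5 ± 2.19 (SD, n = 3) in STAT5B cells. In HDAC3 cells the values were 23.6 ± 2.90 and 21.9 ± 1.05 (SD, n = 3). The scale depends on the length used. Merged exons span 2860 bases in Vps26a and 5099 in Vps26b, while their longest transcripts have 2712 and 3575. Which transcripts the cells make was not measured, so the more abundant subunit cannot be named. The third relative, VPS26C (Dscr3 in the files), belongs to the related retriever complex. It was at 61.8 CPM with the STAT5B hairpin and 47.8 CPM without target, a log2 fold change of 0.37 (adjusted p = 0.233, edgeR), in the opposite direction to Vps26a and Vps26b. Of 20 tested genes of retromer and its partners, with both members left out, 0 were called in STAT5B against no-target by edgeR and 0 by DESeq2, and 3 had an unadjusted p under 0.05, beside 15.9% of all genes tested. Their median log2 fold change was 0.09, with 13 above and 7 below 0, beside a median of -0.01 over all genes tested. Vps35, the scaffold subunit that VPS26 binds, was at 266 CPM with the STAT5B hairpin and 234 CPM without target, a log2 fold change of 0.19.

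Zdhhc3 (chromosome 9, 123066160 to 123113205, minus strand) was at 77.2, 65.3 and 75.0 CPM in the STAT5B cells. In the no-target cells it was at 126.2, 115.4, 110.5, 121.7 and 123.3 CPM, and no library outside the STAT5B group was below 103 CPM. The mean with the hairpin was 60.7% of no-target, with a log2 fold change of -0.72 (SE 0.12). Its closest relative Zdhhc7, a Golgi palmitoyltransferase like ZDHHC3, had a log2 fold change of 0.19. Of 24 tested palmitoylation enzymes apart from Zdhhc3, 0 were called by edgeR and 1 by DESeq2, and 3 had an unadjusted p under 0.05, with a median log2 fold change of 0.01 and 12 on each side of 0. The lowest was Zdhhc15, at 30.4 CPM with the STAT5B hairpin and 57.1 CPM without target (log2 fold change -0.91, adjusted p = 0.120, edgeR), named after its value was seen. Tgm4 on the opposite strand overlaps 6.07% of the exon bases of Zdhhc3. It is expressed at 11.2 CPM in the STAT5B cells and 12.4 CPM in the no-target cells, and without the strand setting of the counting its reads there cannot be told apart from those of Zdhhc3.

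Nudt4 (chromosome 10, 95547007 to 95564146, minus strand) was at 54.1, 52.3 and 42.9 CPM in the STAT5B cells and at 92.6, 80.9, 80.1, 80.4 and 83.8 CPM in the no-target cells. The groups did not overlap, and the mean with the hairpin was 59.6% of no-target (log2 fold change -0.75, SE 0.13). The lowest library of any other group was wild type with IL3 replicate 5, at 65.2 CPM. Nudt3, which encodes the most similar inositol pyrophosphate hydrolase expressed here, had a log2 fold change of 0.31 (adjusted p = 0.389, edgeR). Nudt10 and Nudt11, 2 further relatives, had too few reads to be tested. Of 26 tested NUDIX hydrolases and inositol pyrophosphate enzymes apart from Nudt4, 0 were called by edgeR or DESeq2 and 6 had an unadjusted p under 0.05, and 19 had a log2 fold change above 0, with a median of 0.20.

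Rbm28 (chromosome 6, 29123576 to 29165006, minus strand) had the lowest share of the no-target level among the 6. It was at 70.1, 63.3 and 68.5 CPM in the STAT5B cells, a mean of 67.3 ± 3.55 (SD, n = 3). The no-target libraries spread from 101.7 to 161.7 CPM, with a mean of 125 ± 23.5 (SD, n = 5), and the value of 161.7 came from replicate 1, which has many reads outside genes. The STAT5B mean was 53.8% of no-target, with a log2 fold change of -0.89 (SE 0.13). With the 5 libraries of that kind left out it was -0.71. The gap to the lowest remaining library was 31.1% of that library's value, the widest among the 6. The RNA-binding ribosome factors Rbm19 and Rbm34 had log2 fold changes of 0.13 and -0.04. Of 34 tested genes of large ribosomal subunit assembly, 0 were called by edgeR or DESeq2 and 1 had an unadjusted p under 0.05, with a median log2 fold change of -0.01.

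Aplf (chromosome 6, 87628424 to 87672193, minus strand) was the least abundant, with 150 to 338 reads per STAT5B library. It was at 17.99, 18.60 and 18.01 CPM in the STAT5B cells and at 24.7, 23.1, 28.9, 28.6 and 31.2 CPM in the no-target cells. These groups did not overlap either, and the mean was 66.6% of no-target (log2 fold change -0.59, SE 0.14). As with the genes above, the lack of overlap describes how they were chosen. The share of all genes whose STAT5B and no-target libraries do not overlap was not counted. Wild-type cells held 28.6 to 35.8 CPM with IL3, overlapping the no-target cells, and 32.4 to 44.4 CPM without it. APTX shares with APLF a forkhead-associated domain that binds the same repair scaffold proteins. Its gene had a log2 fold change of 0.20 (adjusted p = 0.499, edgeR). Of 17 tested genes of end joining and break repair, 0 were called by edgeR or DESeq2 and 4 had an unadjusted p under 0.05, with 12 above 0 and a median of 0.18. An antisense gene overlaps 2.35% of the exon bases of Aplf and has no row in the files.

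**Figure D1:**
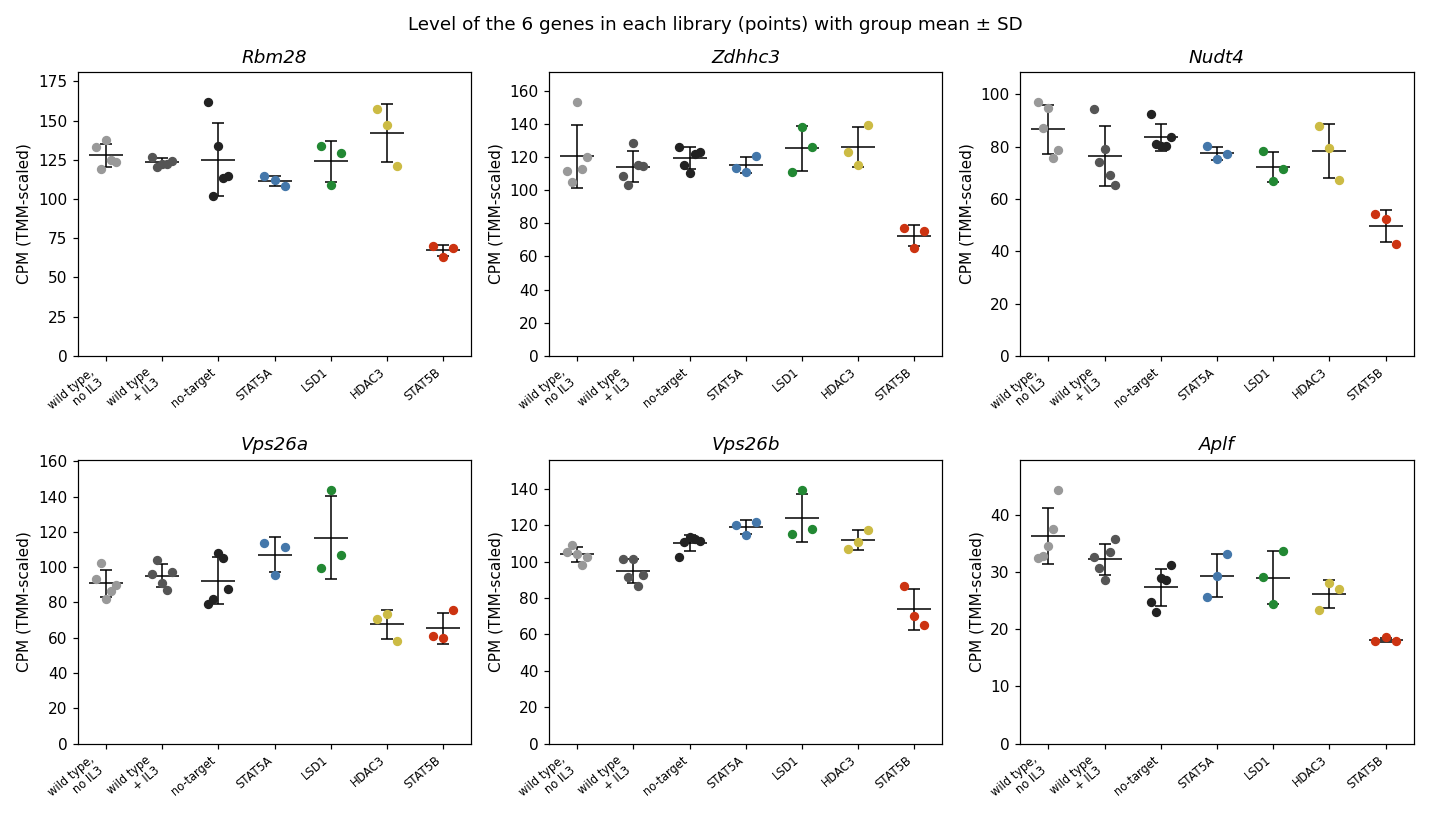
Level of each of the 6 genes (y axis, TMM-scaled CPM, from 0) in each of the 27 libraries (points) by group (x axis), with bars for the mean ± SD of the group. The 3 STAT5B libraries are the lowest for 5 genes, while for Vps26a the 3 HDAC3 libraries lie among them.

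With the STAT5B hairpin as the lowest group, the gap to the next group was wider than the summed SDs of both for 5 genes, and not for Vps26a. The choice of the genes favours such gaps, and the share of all genes with one was not counted. The remaining groups mostly could not be ordered. For Zdhhc3, Nudt4, Vps26b and Aplf, no neighbours in the order of the other 6 groups differed by more than their summed SDs. For Rbm28 the STAT5A cells (111.5 ± 3.34 CPM) lay below stimulated wild type (123.4 ± 2.51 CPM) by more than that, and for Vps26a the HDAC3 cells lay below unstimulated wild type by 23.4 CPM.

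Set against the background of all 12073 genes, 4 of the 6 were among the 16 genes called lower in STAT5B against no-target, which is 0.133% of genes (0.34% were called in either direction). Rbm28, Zdhhc3, Nudt4 and Vps26b took ranks 3 to 6 among the lower genes by p, Aplf rank 23 and Vps26a rank 60. These counts rest on the contrast that chose the genes. Just inside the threshold were Iqgap2, Bhlhe40 and Mapre2 (log2 fold changes -1.90, -1.97 and -0.56), and just outside it Paxip1, E2f7 and Acly (-0.79, -1.28 and -0.73). The call depended on single libraries: without STAT5B replicate 3 only 1 of the 6 was called, without STAT5B replicate 2 there were 2, and without no-target replicate 2 there were 5. DESeq2 called all 6, while edgeR called 2 with no filter on low counts, 1 at a threshold of 0.01 and 0 when only these 2 groups were fitted. The share of all genes called in those settings is not reported here, so these counts have no background beside them.

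Against STAT5A, LSD1 and HDAC3 cells and stimulated wild type, the fitted values of all 6 genes were negative. That of Vps26a against HDAC3 cells was only -0.04 (SE 0.15), which gives no direction, and it was positive in some alternatives. STAT5B cells were not fitted against unstimulated wild type. Against STAT5A cells the log2 fold changes ran from -0.64 (Nudt4) to -0.73 (Rbm28) and 1 of 6 was called, where 0.0166% of all genes were called lower. That 1 was Vps26b, and it was not called when STAT5A replicate 1 or 2, or STAT5B replicate 2 or 3, was left out. DESeq2 called all 6, with the share of all genes it called not reported here. Against LSD1 cells they ran from -0.53 (Nudt4) to -0.88 (Rbm28) and 4 were called (background 0.157%). There, 2 remained called without STAT5B replicate 2 or without LSD1 replicate 2. Against HDAC3 cells 5 were called, all but Vps26a, but 4.35% of all genes were called lower in that comparison. Leaving out STAT5B replicate 3, HDAC3 replicate 1 or HDAC3 replicate 2 left 3 called. Against stimulated wild type they ran from -0.36 (Vps26b) to -0.87 (Rbm28) and 4 were called, Aplf included and Vps26b not (background 0.0663%). Without STAT5B replicate 2, or without stimulated wild-type replicate 3 or 4, this fell to 2. The comparisons share the STAT5B libraries and are not independent of each other. All of them, that with stimulated wild type included, belong to the rule that chose the genes.

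The other hairpins gave 0 of 6 calls against no-target by edgeR and by DESeq2. At an unadjusted p under 0.05 there were 0 with STAT5A, 1 with LSD1 (Vps26a) and 1 with HDAC3 (Vps26a). Of all genes tested, 8.42%, 6.71% and 5.69% were under it in these comparisons. The background of lower calls was 0.0166% with STAT5A, 0.00828% with LSD1 and 0.00828% with HDAC3, so few genes of any kind were called there. With the STAT5A hairpin the 6 log2 fold changes lay between -0.16 (Rbm28) and 0.21 (Vps26a). With LSD1 they lay between -0.21 (Nudt4) and 0.34 (Vps26a), and with HDAC3 between -0.45 (Vps26a) and 0.18 (Rbm28). Vps26a had the most distant value with each of these 3 hairpins, upward with STAT5A and LSD1 and downward with HDAC3. The no-target cells themselves differed from stimulated wild type by -0.24 (Aplf) to 0.22 (Vps26b) on the log2 scale. There, 0 of 6 were called by edgeR or DESeq2, and 0% of genes were called lower. At an unadjusted p under 0.05 there was 1 of 6, beside 16.9% of all genes tested. These comparisons share the no-target libraries with STAT5B against no-target.

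**Figure D2:**
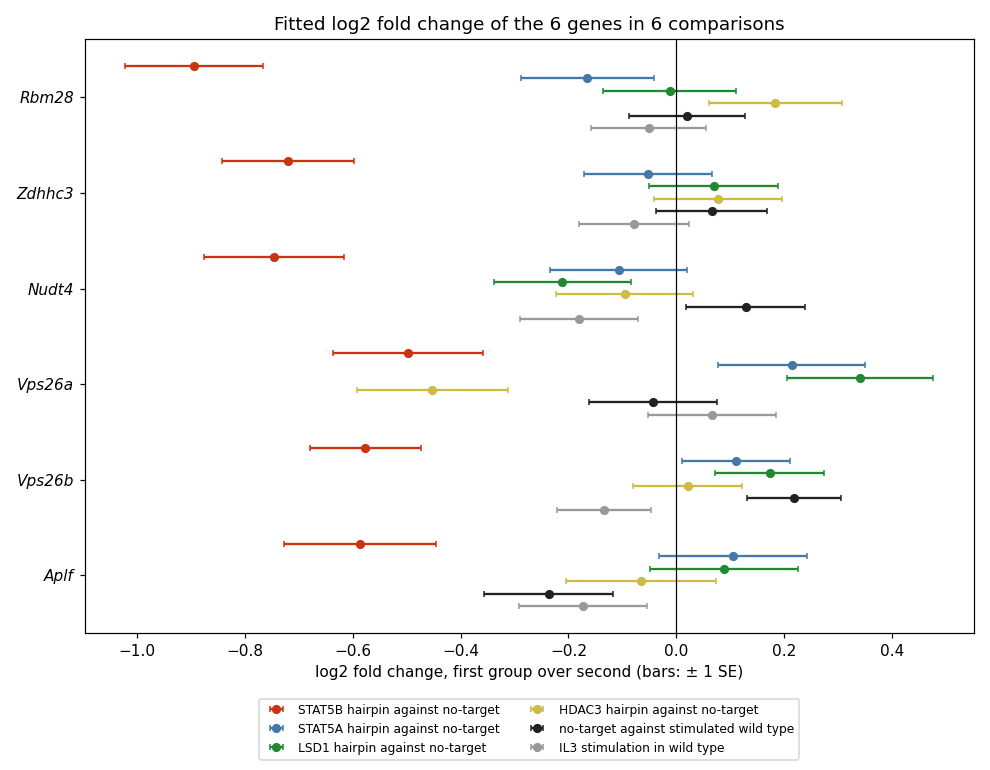
Fitted log2 fold change (x axis) of each of the 6 genes (y axis) in 6 comparisons (colours), with bars for ± 1 SE. The comparison of the STAT5B hairpin with no-target lies to the left of 0 for all 6 genes, and with the HDAC3 hairpin Vps26a lies at -0.45.

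The pattern of every STAT5B library below every other library was held by 16 genes, or 0.133% of those tested, and 5 of them are members. The remaining 11 included Stat5b itself, and Iqgap2 and Acly from either side of the threshold above. A further 10 genes were above all other libraries. The same count for 3 libraries of another hairpin gave 5 genes below and 4 above with STAT5A, 3 and 11 with LSD1, and 40 and 31 with HDAC3. The STAT5B count rose to 38 when the 5 libraries rich in such reads were left out, to 26 without unstimulated wild-type replicate 3, and to 77, 45 and 30 without STAT5B replicate 1, 2 or 3.

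IL3 stimulation in wild-type cells is the comparison that did not choose the genes, and there the 6 could be tested. None passed: 0 of 6 were called by edgeR, 0 had an unadjusted p under 0.05 (14% of all genes did), and 0 were called by DESeq2, while 3.82% of all genes were called. Same-numbered wild-type libraries vary together, and an edgeR fit of these 2 groups with the replicate number as a block called 22.4% of genes (10.5% without the block) and again 0 of the 6. In that blocked fit, 2 of the 6 had an unadjusted p under 0.05, beside 42.3% of genes: Nudt4 (adjusted p = 0.0615) and Vps26b (adjusted p = 0.114). Nudt4 was at 97.0, 87.1, 94.8, 75.6 and 78.6 CPM without IL3 and at 94.4, 74.0, 79.3, 69.2 and 65.2 CPM after it, lower in 5 of 5 same-numbered pairs. The groups overlapped, and its log2 fold change was -0.18 (95% interval -0.41 to 0.05, adjusted p = 0.497, edgeR). Vps26b was also lower in 5 of 5 pairs, with a log2 fold change of -0.13 (interval -0.32 to 0.05, adjusted p = 0.535, edgeR). Vps26a was lower in 0 of 5 pairs, with a log2 fold change of 0.07 (interval -0.18 to 0.31, adjusted p = 0.862, edgeR). The retromer subunits thus had values on opposite sides of 0, and neither passed.

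Aplf was lower with IL3 in 4 of 5 pairs (log2 fold change -0.17, interval -0.42 to 0.07, adjusted p = 0.558, edgeR). Zdhhc3 was lower in 4 of 5 pairs (-0.08, interval -0.29 to 0.14, adjusted p = 0.797, edgeR), and its value became 0.027 without unstimulated replicate 3, the library with its highest level, 153.0 CPM. Rbm28 was lower in 3 of 5 pairs (-0.05, interval -0.27 to 0.17, adjusted p = 0.882, edgeR). Every interval excludes a log2 fold change as far from 0 as that gene had between STAT5B and no-target cells. The intervals are from the fit without the replicate block. The values they are set against come from the comparison that chose the genes, so these may lie too far from 0. The times differ too, with minutes of IL3 here and a week or more of selection for hairpin cells. The intervals therefore describe a short stimulation only, and longer exposure to IL3 was not tested. Among the genes of the same processes, 3 of the 34 for ribosome assembly rose with IL3, namely Mak16, Rrs1 and Gnl3, by 0.93, 1.16 and 1.22 on the log2 scale (adjusted p = 0.00292, 0.00423 and 0.00962, edgeR), and none of the 34 was called lower. The palmitoyltransferase gene Zdhhc5 rose by 0.66 (adjusted p = 0.00632, edgeR), and Ippk, which encodes the kinase that makes inositol hexakisphosphate, by 0.53 (adjusted p = 0.0172, edgeR). Of the retromer and end joining lists, 0 genes passed by edgeR in this comparison, with 1 of 20 and 5 of 17 at an unadjusted p under 0.05.

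**Figure D3:**
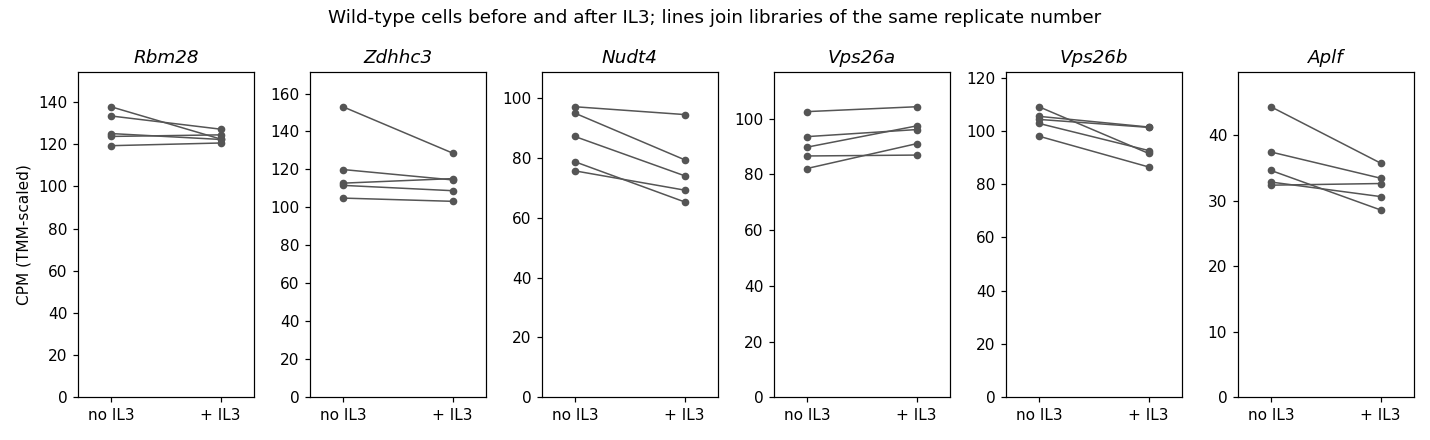
Level of each of the 6 genes (y axis, TMM-scaled CPM, from 0) in wild-type cells without and after IL3 (x axis), with a line joining libraries of the same replicate number. The lines of Nudt4 and Vps26b fall in 5 of 5 pairs, and those of Vps26a fall in 0 of 5. The log2 change within a pair was -0.27 to -0.04 for Nudt4 and -0.25 to -0.04 for Vps26b.

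Over the 24 libraries without the STAT5B hairpin, Pearson r of log2 CPM between pairs of the 6 ranged from -0.45 to 0.423. The median was -0.0549, and 5 of 15 pairs were positive. The genes were picked as not lowered with the other hairpins, so low values of r here are in part set by the choice. Over all 27 libraries all 15 pairs were positive (0.307 to 0.82), a value set by the 3 libraries that chose the genes. Vps26a and Vps26b had r = 0.342 over the 24 libraries and 0.554 over the 27, and Rbm28 and Nudt4 had 0.423 and 0.82. The libraries share groups and depth classes, so these are descriptions. Among 9621 non-member genes with a mean of at least 5 CPM, those most like the mean of the 6 over 27 libraries were Stat5b (r = 0.844), Mapre2 (0.724), Hnrnpul2 (0.711), Zfp512 (0.703) and Bmi1 (0.690). Over the 24 libraries the r of these genes was -0.436, -0.107, 0.451, 0.201 and 0.0834. All 5 had a lower r once the STAT5B libraries were left out. They were picked for a high r over the 27 libraries, so that choice favours a fall.

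**Figure D4:**
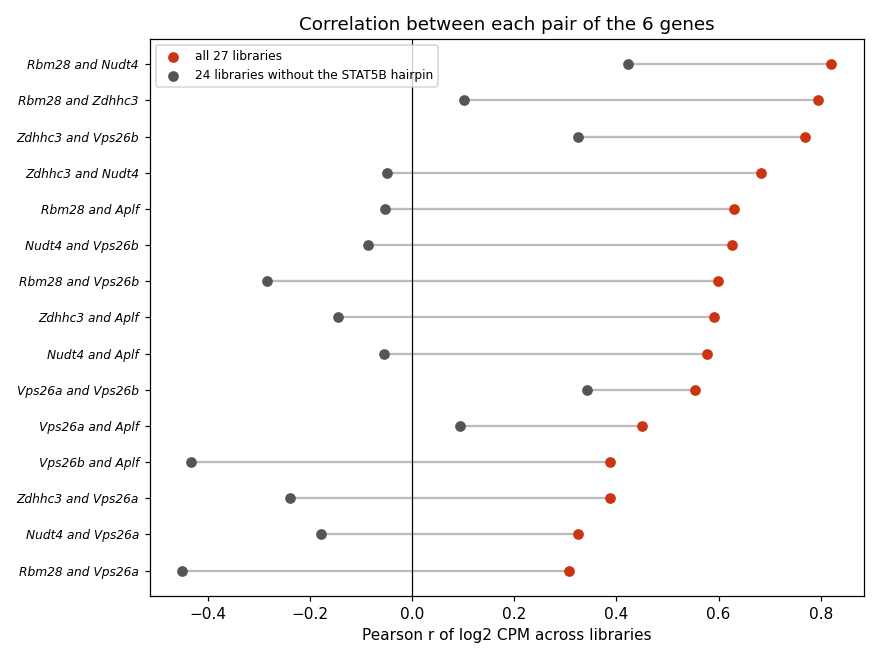
Pearson r of log2 CPM (x axis) for each of the 15 pairs of the 6 genes (y axis), over all 27 libraries (red) and over the 24 without the STAT5B hairpin (grey). All red points lie above 0, and 10 of the 15 grey points lie below it.

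The 6 genes lie on chromosomes 6, 9 and 10, with no 2 of them adjacent, and all 6 are on the minus strand, as are 5705 of 11409 tested genes with 1 position. The nearest tested gene on each side was not called in any case (0 of 12 by edgeR, 1 at an unadjusted p under 0.05). Ncapd3, a condensin subunit gene that starts 109 bases from Vps26b on the opposite strand, was at 93.1 CPM with the STAT5B hairpin and 142 CPM without target (log2 fold change -0.61, adjusted p = 0.285, edgeR). Exosc7, an RNA exosome subunit gene 9 bases from Zdhhc3 on the opposite strand, had a log2 fold change of 0.09. Thus the gene paired head to head with Zdhhc3 stayed within 1 SE of 0, and the one paired with Vps26b had a negative value that did not pass. Eea1, 377 kb from Nudt4, had -0.60 (adjusted p = 0.384, edgeR), and the remaining 9 neighbours lay between -0.16 and 0.61.

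**Figure D5:**
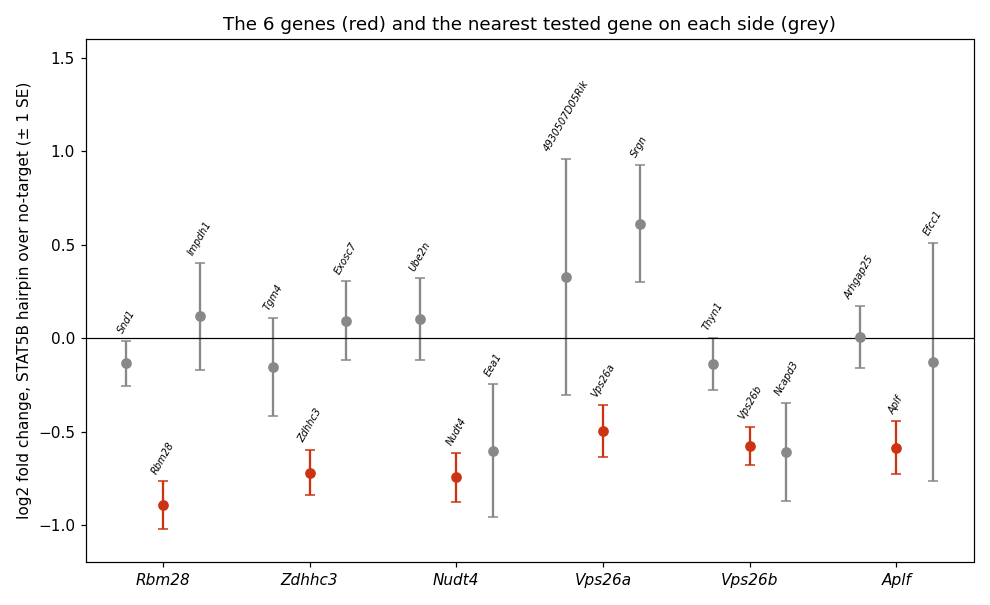
Log2 fold change of STAT5B over no-target cells (y axis, bars ± 1 SE) for the 6 genes (red) and for the nearest tested gene on each side of each (grey). The red points lie between -0.89 and -0.50, and none of the 12 grey genes was called.

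Upstream sequence was taken from RefSeq (GRCm38.p6), where all 6 genes matched with 7 windows of 250 bases before to 50 after a start. The STAT5 motif TTCNNNGAA, read on both strands, was in 0 of the 7 windows and in 8.3% of all 32851 windows of the same length. The same half-sites with 1 base more between them were in 0 of 7 (6.95% of all), and TTCCNGGAA, a narrower form of the first motif, in 0 of 7 (1.15%). This says only that these letters are not in these windows. CACGTG, the E-box that MYC family and USF proteins can bind, was added after the sequences were seen. It was in 3 of the 7 windows, those of Zdhhc3 (192 bases before the start) and both of Vps26a, and in 7.15% of all. The windows of Vps26a overlap, so by gene it was in 2 of 6.

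The upstream 250 bases of Vps26a and of Nudt4 are shown because these begin at the annotated gene's edge and include no other gene's start, with CACGTG in capitals. They lie on the minus strand at chr10:62486806-62487055 and chr10:95564147-95564396.
Vps26a: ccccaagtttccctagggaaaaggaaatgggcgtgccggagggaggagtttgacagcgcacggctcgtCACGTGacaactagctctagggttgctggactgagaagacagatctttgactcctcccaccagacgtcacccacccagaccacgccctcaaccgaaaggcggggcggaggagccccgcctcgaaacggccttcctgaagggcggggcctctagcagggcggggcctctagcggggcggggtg
Nudt4: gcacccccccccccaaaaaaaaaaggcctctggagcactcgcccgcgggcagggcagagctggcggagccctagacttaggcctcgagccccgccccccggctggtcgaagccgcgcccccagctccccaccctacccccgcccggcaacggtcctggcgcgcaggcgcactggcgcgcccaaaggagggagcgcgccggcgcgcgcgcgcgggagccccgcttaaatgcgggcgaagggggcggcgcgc
Vps26a has 1 CACGTG here, 182 bases before the start, and Nudt4 has none. The windows differ in base composition, from 51.7% G and C in Rbm28 and 52.3% in Aplf to 74.7% in Nudt4 and 75.3% in the second window of Vps26a, with a median of 60.3% for tested genes. The 6 genes therefore share neither a motif that was searched nor a base composition in these windows.

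Some markers of another cell kind were higher with the STAT5B hairpin. The summed level of 10 myeloid markers was 371 to 587 CPM in the STAT5B libraries and 111 to 258 CPM in the no-target libraries. All 7 of these markers that could be tested had a positive log2 fold change and 1 was called, Lyz2 (13.05 against 5.59 CPM, adjusted p = 0.0453, edgeR), while Ly6c2 had 0 reads in both groups. Over all 27 libraries, Clec4e ran from 84.5 to 446 CPM and Mpo from 1.24 to 369 CPM. Csf1r, Itgam and Elane reached at most 0.689, 0.756 and 4.73 CPM in any library. The sum was also high with the STAT5A hairpin (287 to 710 CPM) and the LSD1 hairpin (317 to 459 CPM), with which 0 of the 6 genes were called lower. Mast cell and basophil markers summed to 31.1 to 62.4 CPM with STAT5B and 11.5 to 29.0 CPM without target, with Fcer1a at 0 reads in both. T-cell and fibroblast markers summed to at most 12.6 and 2.78 CPM in any library. The part of these markers in the levels of the 6 genes was not tested.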

How the data were processed

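Each library had 1 deposited file of raw read counts by gene symbol, made by the authors from polyA libraries (TruSeq RNA v2 kit, per the labels' protocols). Trimmomatic 0.30, TopHat2 2.0.10, HTSeq 0.5.4p5, DESeq2 1.2 and mm10 are named, per the submitters' processing notes. The sources used here do not give the counting mode, strand setting or annotation. Library sizes and tests exclude the 5 HTSeq summary rows. Groups came from the titles. All 27 libraries entered 1 edgeR quasi-likelihood fit (R 4.3.3, edgeR 4.0.16, limma 3.58.1) with a mean per group, TMM factors, filterByExpr and the robust option. Genes were called at a Benjamini-Hochberg adjusted p under 0.05 over all 12073 genes. SEs are the log2 fold change over the square root of F. The script was tested on simulated data.

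The 6 genes and the lists of related genes and markers were chosen with earlier results of these data known. Named besides them are the hairpin targets, closest relatives, nearest neighbours, the 5 most similar genes, 3 genes on each side of the threshold and up to 4 called genes per list. Some genes that fall under this are counted but not reported here. Same-numbered wild-type libraries pair across the IL3 comparison (correlation of deviations 0.375 to 0.716 in 5 of 5 pairs). Correlations used log2 CPM with a prior count of 2. Gene positions are from GENCODE vM21 and promoters from RefSeq. Alternatives were RLE size factors, no filter, DESeq2 1.42.0, a fit of 2 groups only, a threshold of 0.01, a block for the replicate number, and leaving out each library or the 5 libraries with over 13% of reads outside genes.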

Additional observations from a re-analysis of the deposited data

Results flagged for a closer look

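Vps26b in no-target replicate 1 was at 102.4 CPM, apart from the remaining 4 no-target libraries, of which the nearest was at 110.5 CPM. The gap is 0.714 of the range of the group. The library is 1 of the 5 with many reads outside genes, and it still lay above all 3 STAT5B libraries. It was the only such library among the 21 combinations of the 6 genes and Stat5b with the 3 groups of 5 libraries, and chance gives about 1 in 20.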

How the results depend on the processing

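Over all alternatives, the fitted values of the 6 genes in the 5 comparisons of the STAT5B hairpin were negative in 409 of 414 cases. The 5 positive values were all of Vps26a against HDAC3 cells. The number of genes called depended on the processing, except that it was 0 of 6 in every alternative for IL3 stimulation, for the STAT5A, LSD1 and HDAC3 hairpins against no-target, and for no-target against stimulated wild type. The replicate block was fitted only together with the restriction to the 2 groups compared. For the comparisons of the STAT5B hairpin, the share of all genes called in each alternative is not reported here. In STAT5B against no-target (4 called), 2 were called with no filter on low counts, 1 at a threshold of 0.01, 0 when only the 2 groups were fitted and 0 with the replicate block. Against STAT5A cells (1), 0 were called with no filter, at 0.01, with only 2 groups and with the block, 6 with DESeq2 and 2 without the 5 libraries. Against LSD1 cells (4), 1 was called with no filter and 0 with only 2 groups or the block. Against HDAC3 cells (5), 2 were called with no filter, 3 at 0.01, 0 with only 2 groups or the block and 3 without the 5 libraries, which leaves 1 HDAC3 library, assumed to vary like the other groups. Against stimulated wild type (4), 2 were called with no filter, 2 at 0.01 and 0 with the block. DESeq2 called 1 palmitoylation enzyme lower, and the replicate block left 0 of the STAT family called. Fits of 2 groups, blocked or not, have fewer samples to estimate the spread from. Apart from that, the cause was not tested.

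Leaving out 1 library at a time gave 1 to 5 calls against no-target, 0 to 1 against STAT5A, 2 to 4 against LSD1, 3 to 5 against HDAC3 and 2 to 4 against stimulated wild type. The number of genes with all STAT5B libraries lowest ran from 14 to 77, and was 38 without the 5 libraries. The IL3 value of Zdhhc3 ran from -0.13 (without stimulated replicate 3) to 0.027 (without unstimulated replicate 3), where its sign changed. For STAT5B and no-target, replicate numbers do not pair the libraries (0 of 3 same-numbered pairs correlated above 0.1). Above 0.1 were 2 of 3 pairs for STAT5B and LSD1, and 1 of 3 for STAT5B and STAT5A, HDAC3 or stimulated wild type. With STAT5A the pairs ran from -0.258 to 0.515, and with stimulated wild type from 0.0293 to 0.41. Replicate numbers thus pair these groups at most in part, and calls lost under the block there are no measure of the effect. In wild type, where numbers pair, the block changed no call of the 6, and 2504 genes were called with it and 1170 without it. Aplf rests on the fewest reads of the 6, 150 in the shallowest STAT5B library.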
